A study of Rattus norvegicus with 4 samples.

Results

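The hypoxia response and its vascular arm were followed through 8 genes: Vegfa, Adm, Flt1, Kdr, Hif1a, Vhl, Egln3 and Cited2. They were chosen as a named list with earlier results of these data known, so counts over them are a description, not a test. A probe set is a group of short oligonucleotides that reports 1 transcript. Every probe set whose only gene symbol in the platform annotation was one of the 8 was taken. This gave 15 of the 8740 probe sets that are not array controls, on which 4736 gene symbols are represented. Vegfa had 4 probe sets, Cited2 had 3, Vhl and Egln3 had 2 each, and the other 4 genes had 1 each.

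The samples were cortex on the injured side of ovariectomised female rats after a transient stroke, made by blocking the middle cerebral artery with an intraluminal method for 2 h. All animals of both groups were thus ovariectomised and had the stroke. They differed in hormone replacement, 17beta-estradiol in one group and placebo in the other, and the labels give no strain, age or dose. Each group had 2 arrays (array A of the Affymetrix rat U34 set), and each array carried RNA combined from 3 animals, so a value is an average over animals and the spread between animals is hidden. Estradiol 1, estradiol 2, placebo 1 and placebo 2 name the pools. The study's text names tissue taken at 6 and 24 h, and no label states in words which of these the 4 arrays are, so values are not tied to a time.

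Cells sense oxygen through hypoxia-inducible factors, transcription factors made of an oxygen-regulated alpha subunit such as Hif1a and a stable partner such as Arnt. With oxygen present, prolyl hydroxylases such as Egln3 mark the alpha subunit, the Vhl protein recognises the mark, and the subunit is degraded. In hypoxia it escapes and switches on targets that include Vegfa, the main growth and permeability factor of blood vessels, Adm, a vasodilator peptide, Egln3 itself and Cited2, which competes with the factor for its coactivators. Vegfa acts on endothelium through the receptors Flt1 and Kdr. Much of this control works on protein stability, which transcript arrays do not measure.

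None of the 8 genes had a probe set that passed the adjusted test. Cited2 had higher values with estradiol in its 2 tested probe sets, of which the dimmer was tested only because of the estradiol pools. Vhl gave opposite pictures in its 2 probe sets. Vegfa also gave opposite signs in its 2 tested probe sets, and Hif1a, Flt1, Kdr and Egln3 had log2 fold changes between -0.31 and 0.07. Adm lay near background and was not tested.

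Array facts that touch all of these values are few. The median intensity of the arrays lay between 55.0 and 57.8. The highest of 23 control probe sets for transcripts of other organisms, taken as background, stood at 33.9, 37.8, 37.8 and 30.1 in estradiol 1, estradiol 2, placebo 1 and placebo 2. Probe sets with a mean intensity below 37.5 over the 4 arrays were left out of the test, which kept 5244 of 8740 overall and 11 of the 15 described here. Log2 fold changes are estradiol over placebo on the log2(intensity + 16) scale, so that folds of dim probe sets come out too small. The SD is taken over 2 pools, and SE and 95% intervals come from the limma fit. The summed intensity of 10 neuron markers ran from 6929 in placebo 1 to 10173 in placebo 2. The summed intensity of 7 striatum markers was 1648 and 1926 in the estradiol pools and 800 and 1028 in the placebo pools, although all samples are labelled cortex. That of 10 choroid plexus and meninges markers ran from 1402 in placebo 2 to 12878 in placebo 1. The part of these differences in the values below was not tested.

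No probe set passed an adjusted p of 0.05 in limma (Benjamini-Hochberg), 0 of 5244 (0%) over the array and 0 of the 11 for the hypoxia and VEGF genes. Each of the 11 had an adjusted p of 0.998. At an unadjusted p below 0.05, limma gave 161 probe sets (3.07%) over the whole array and 2 of the 11. Cited2 (rc_AI014091_at) was the 1 with the higher value under estradiol, against 1.74% of all tested probe sets, and Vhl (S80345_s_at) the 1 with the lower value, against 1.33%. The estradiol pools lay entirely above or entirely below the placebo pools for 6 of the 11, against 29.7% of all tested probe sets, with 3 above (15.4% of all) and 3 below (14.3% of all). Without the intensity filter this held for 7 of 15, against 30.8% of 8740 probe sets. For Vhl (S80345_s_at) and Cited2 (rc_AA900476_g_at), the mean of the dimmer group alone was below the filter limit, so each was tested only because of the group where it was brighter. The median log2 fold change was -0.08 over the 11 and 0.01 over all tested probe sets, with 5 of the 11 above 0. Without estradiol 1 the median of the 11 was 0.07. An exact two-sided permutation test of 1 probe set over the 4 pools cannot go below p = 0.333.

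**Figure D1:**
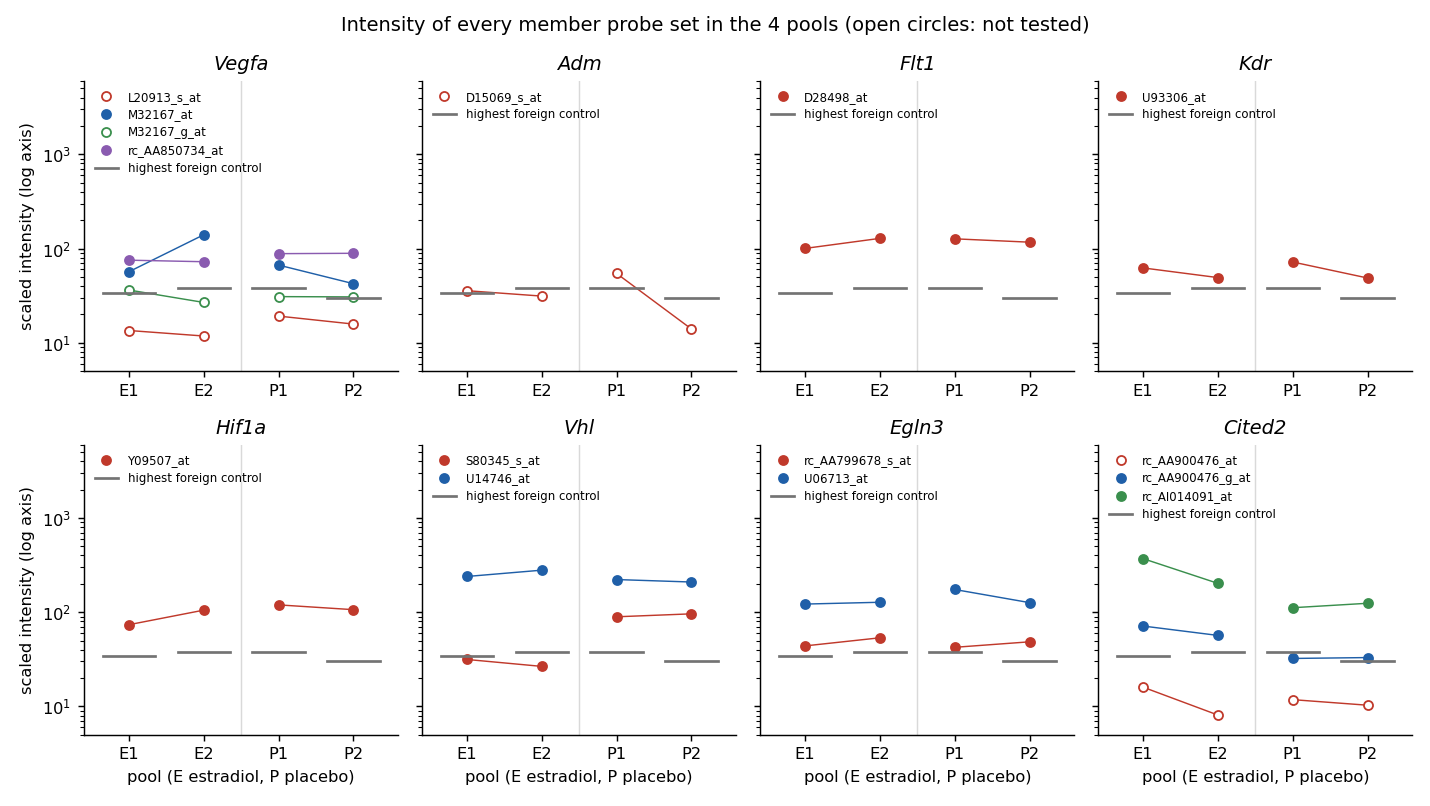
Scaled intensity (log axis) of all 15 probe sets of the 8 genes in the 4 pools, with lines joining pools of a group and grey bars at the highest foreign control of each array. Open circles mark the 4 probe sets that were not tested. The Vhl probe set S80345_s_at lies at or below the grey bars in the estradiol pools alone, and the 2 tested Cited2 probe sets are higher there.

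Cited2 encodes a small nuclear protein that binds the coactivators p300 and CBP in place of Hif1a and so damps the hypoxia response. Its brightest probe set, rc_AI014091_at, read 370.1 and 202.3 in the estradiol pools and 111.6 and 124.4 in the placebo pools. The groups did not overlap, and estradiol 1 was the highest pool by a wide margin. The means were 286 ± 119 (SD, n = 2) and 118 ± 9.05 (SD, n = 2). The log2 fold change was 1.12 ± 0.30 (SE), with a 95% interval from 0.42 to 1.81 and a limma unadjusted p of 0.00623. This placed it 19th of 5244 by p. Without estradiol 1 it was 0.71, and without estradiol 2 it was 1.53, so its size rested in part on estradiol 1. The striatum markers were also higher in both estradiol pools, but highest in estradiol 2, where this probe set was the lower of the pair. Their part in the value was not tested.

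The next Cited2 probe set, rc_AA900476_g_at, read 71.3 and 56.7 with estradiol and 32.3 and 33.0 with placebo. It ordered the 4 pools as the brightest one did, although the log2 values of the placebo pools differed by only 0.02. The fitted log2 fold change was 0.71 ± 0.32 (SE), with a 95% interval from -0.03 to 1.46 and a limma unadjusted p of 0.0585. Placebo 1 was at background for it, so the value is partly limited by the detection floor. The last probe set, rc_AA900476_at, read 16.0, 8.1, 11.8 and 10.3, below background on all 4 arrays, and gives no information on the gene.

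Among all tested probe sets, the pattern of rc_AI014091_at over the 4 pools was most like those of Sult2a6, at 67.0, 47.3, 15.7 and 20.5, and Fam234a, at 113.5, 38.3, 29.9 and 31.4. The measure was the root mean square distance between mean-centred log2 values over 4 arrays, 0.155 for Sult2a6 and 0.206 for Fam234a, and 4 probe sets lay within 0.25. Sult2a6 was at background in both placebo pools and Fam234a in placebo 1. The placebo values of both were below the intensity limit, so each was tested only because of the estradiol pools. Their likeness to Cited2 thus rests partly on the detection floor. Cited2 was the only one of the 8 genes whose brightest tested probe set ranged over more than 1 log2 unit, so the other 7 were not searched for like patterns.

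Vhl encodes the substrate receptor of the ubiquitin ligase that removes hydroxylated Hif1a. Probe set S80345_s_at read 31.5 and 26.6 with estradiol and 89.4 and 96.1 with placebo. The estradiol values were at background in both pools, whereas the placebo values were well above it and close together. This probe set was at least 2.59-fold lower with estradiol, and its fitted log2 fold change was -1.27 ± 0.29 (SE), with a 95% interval from -1.96 to -0.59 and a limma unadjusted p of 0.00284. With 1 pool left out it lay between -1.35 and -1.19, and with offsets of 1 and 64 in place of 16 it was -1.65 and -0.75.

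The brighter Vhl probe set, U14746_at, had the opposite sign. It read 239.5 and 279.4 with estradiol and 222.1 and 209.1 with placebo, so the groups again did not overlap. Here the log2 fold change was 0.25 ± 0.21 (SE), with a 95% interval from -0.25 to 0.74 and a limma unadjusted p of 0.279, and it was 0.14 without estradiol 2. The intervals of the 2 Vhl probe sets did not overlap. The suffix _s_at is the manufacturer's mark for probes that can match more than 1 transcript, and the probe sequences were not used here, so no direction is given for the gene as a whole.

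Windows of 250 bases before the RefSeq transcript start are shown for Cited2, for Vhl and for Hif1a, the factor itself. Cited2 and Vhl each had a tested probe set with a log2 fold change beyond 1 in size. For Vhl this was S80345_s_at, at background in both estradiol pools, and not the brighter U14746_at. Capitals mark ACGTG and GCGTG, the letters of the core hypoxia response element, searched on both strands.
Cited2 (GRCr8, chr1:14132053-14132302, + strand): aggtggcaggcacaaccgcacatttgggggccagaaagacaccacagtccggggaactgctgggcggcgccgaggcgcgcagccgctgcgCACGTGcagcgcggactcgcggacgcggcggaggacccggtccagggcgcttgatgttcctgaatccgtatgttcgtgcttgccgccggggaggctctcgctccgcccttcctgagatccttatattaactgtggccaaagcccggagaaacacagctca
Vhl (GRCr8, chr4:148327849-148328098, + strand): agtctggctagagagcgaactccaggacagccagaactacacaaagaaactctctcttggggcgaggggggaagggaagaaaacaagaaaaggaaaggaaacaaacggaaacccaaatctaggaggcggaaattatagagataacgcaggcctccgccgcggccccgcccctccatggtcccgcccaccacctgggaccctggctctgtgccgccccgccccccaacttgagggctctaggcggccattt
Hif1a (GRCr8, chr6:98359648-98359897, + strand): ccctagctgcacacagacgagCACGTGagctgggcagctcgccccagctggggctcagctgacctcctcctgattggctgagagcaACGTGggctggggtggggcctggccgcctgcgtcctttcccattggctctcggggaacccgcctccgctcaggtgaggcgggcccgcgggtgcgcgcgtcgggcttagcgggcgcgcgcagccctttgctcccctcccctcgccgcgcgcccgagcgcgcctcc
The Cited2 window held 2 overlapping matches to ACGTG, which share the palindrome CACGTG. The Hif1a window held 3, of which 2 again share a CACGTG, and the Vhl window held none of either form. Of all 33469 RefSeq windows of this length, 16.6% held ACGTG, 25.9% held GCGTG and 36.7% held at least 1 of them. Among the other genes, Kdr had 2 matches to GCGTG and Flt1 had 1, while the windows of Vegfa, Adm and Egln3 had no match to either form. The palindromic estrogen response element, GGTCA followed by any 3 bases and the reverse complement of GGTCA, was in none of the windows of the 8 genes and in 0.0239% of all windows. Its half-site GGTCA, which is part of it, was found in the windows of Hif1a, Kdr and Egln3 and in 1 of the 2 windows of Vegfa, against 35.4% of all windows. A match here is a run of letters, not a bound site. Sequence outside these windows was not searched, so a window without a match does not show that the gene lacks the element.

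Vegfa, the ligand at the head of the vascular arm, was read by 4 probe sets that differed in pattern. The brightest, rc_AA850734_at, read 75.3 and 72.5 in the estradiol pools and 88.3 and 89.1 in the placebo pools. Pools of a group were nearly equal and the groups did not overlap, yet the difference was small, with a log2 fold change of -0.22 ± 0.25 (SE), a 95% interval from -0.79 to 0.35 and a limma unadjusted p of 0.398. Leaving out 1 pool moved it only between -0.24 and -0.20.

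Probe set M32167_at read 56.8 and 140.2 with estradiol and 66.8 and 42.4 with placebo. Estradiol 2 was far above the other 3 pools, and estradiol 1 lay between the placebo pools. The log2 fold change was 0.62 ± 0.40 (SE), with a 95% interval from -0.32 to 1.56 and a limma unadjusted p of 0.167, and with 1 pool left out it ran from 0.07 without estradiol 2 to 1.17 without estradiol 1. Its companion from the same accession, M32167_g_at, read 36.3, 26.8, 30.9 and 30.7. It was at background in estradiol 2 and placebo 1 and barely above it in the others, so it says little on estradiol 2. The fourth, L20913_s_at, lay at background throughout and read 13.5, 11.8, 19.2 and 15.8. Neither of the last pair was tested.

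Adm encodes adrenomedullin, a vasodilator peptide that hypoxia induces in many tissues. Its only probe set, D15069_s_at, read 35.7 and 31.3 with estradiol and 54.4 and 14.0 with placebo. Estradiol 2 and placebo 2 were at background and estradiol 1 barely above it, so placebo 1 alone gave a clear signal. Placebo 1 and placebo 2 differed by 1.23 on the log2 scale, and the estradiol pools lay between them. Its mean was below the intensity limit. Placebo 1 was also the pool with the highest choroid plexus and meninges markers, with Ttr, the transthyretin gene of choroid plexus, at 8034.3 there against 74.3 in placebo 2. Their part in the Adm signal was not tested.

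Flt1 and Kdr are receptor tyrosine kinases of endothelial cells, Kdr carrying most of the growth signal and Flt1 binding Vegfa tightly with weaker signalling. Flt1 read 100.4 and 128.3 with estradiol and 126.9 and 116.9 with placebo. The groups overlapped, since estradiol 2 was the highest pool and estradiol 1 the lowest. Its log2 fold change was -0.09 ± 0.24 (SE), with a 95% interval from -0.64 to 0.46, and it was 0.07 without estradiol 1. Kdr read 62.3 and 49.2 with estradiol and 72.0 and 48.7 with placebo. The groups overlapped, and the gap between placebo pools, 0.44 on the log2 scale, exceeded the difference between groups. For Kdr the log2 fold change was -0.08 ± 0.31 (SE), with a 95% interval from -0.80 to 0.65. It was 0.05 without estradiol 2 and 0.14 without placebo 1.

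In pooled tissue, fewer endothelial cells and less receptor RNA per cell cannot be told apart. Of 14 vascular cell markers on the array, 10 were tested, and all 10 had log2 fold changes below 0, with a median of -0.42, against 47.6% of all genes below 0 and a median of 0.01 overall. At an unadjusted p below 0.05 in limma, 3 of the 10 were lower with estradiol, against 0.880% of all genes. Nos3 and Slc2a1 stand in this list and in the pathway lists below. Blood cell markers showed lower values as well, 6 of 8 below 0 with a median of -0.51 and 3 at an unadjusted p below 0.05, and their summed intensity was 2056 and 4414 in the estradiol pools and 6285 and 5552 in the placebo pools. The part of either marker list in the receptor values was not tested. The summed intensity of the vascular markers was 2139 and 1656 in the estradiol pools and 2788 and 2045 in the placebo pools. Placebo 1 was highest, and placebo 2 lay between the estradiol pools. Slc2a1 alone gave 1127.5 and 825.5 of the sums with estradiol and 1338.3 and 875.7 with placebo. The mean log2 deviation of the 10 genes, which weighs each gene equally, was -0.13 and -0.34 in the estradiol pools. It was 0.45 and 0.02 in the placebo pools, so by this measure both placebo pools were higher. The probe sets of Vwf, a defining endothelial gene, were at background on every array. The Kdr values were highest in placebo 1, as the vascular sum was, and the Flt1 values were highest in estradiol 2, where the sum was lowest.

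**Figure D2:**
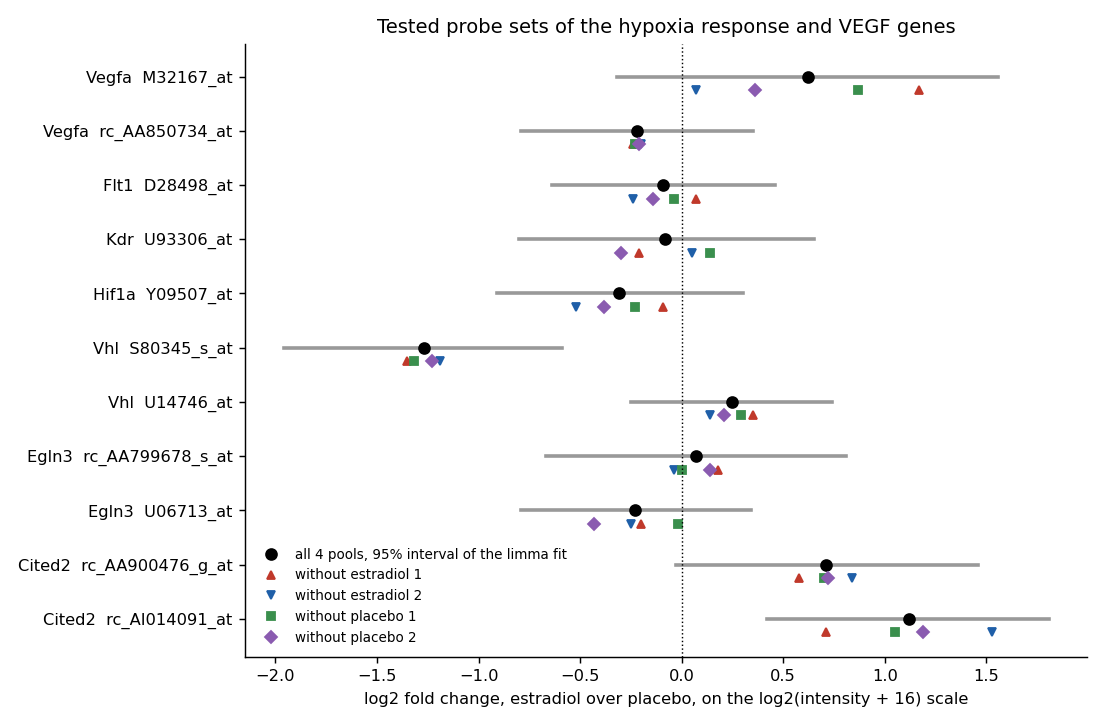
Log2 fold change, estradiol over placebo, of the 11 tested probe sets (black points) with 95% intervals of the limma fit (grey bars), and the value with each pool left out (coloured symbols). Intervals of 9 of the 11 include 0, and the exceptions are Vhl (S80345_s_at) and Cited2 (rc_AI014091_at), neither of which passed adjustment.

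Hif1a encodes the oxygen-regulated subunit of the factor. Its probe set read 73.7 and 105.2 with estradiol and 119.6 and 106.4 with placebo. Both estradiol pools were below both placebo pools, but estradiol 2 missed placebo 2 by little, and the low mean came from estradiol 1. The log2 fold change was -0.31 ± 0.26 (SE), with a 95% interval from -0.91 to 0.30 and a limma unadjusted p of 0.274. It was -0.09 without estradiol 1 and -0.52 without estradiol 2.

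Egln3 encodes a prolyl hydroxylase that tags Hif1a for Vhl and is itself induced by hypoxia. Probe set U06713_at read 122.0 and 127.5 with estradiol and 174.2 and 126.4 with placebo. Placebo 1 stood above the other pools, which were nearly equal. Its log2 fold change was -0.23 ± 0.24 (SE), with a 95% interval from -0.79 to 0.34, and it was -0.02 without placebo 1 and -0.43 without placebo 2. The dimmer probe set, rc_AA799678_s_at, read 43.9 and 53.5 with estradiol and 42.4 and 48.5 with placebo. Its log2 fold change was 0.07 ± 0.32 (SE), with a 95% interval from -0.67 to 0.81, and it was -0.04 without estradiol 2. The groups overlapped in both probe sets.

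Of the 11 tested probe sets, 5 had a log2 fold change larger than the gap between pools in either group, against 18.5% of all tested probe sets. These were the Vegfa probe set rc_AA850734_at, the 2 of Vhl and the 2 of Cited2. Among them, Vhl (S80345_s_at) and Cited2 (rc_AA900476_g_at) were tested only because of their brighter group. Their dimmer group lay at or near background, where the offset also narrows the gap between pools, so the count is no evidence for these 2. For the other 6 the pools of 1 group or both differed by more than the groups did.

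**Figure D3:**
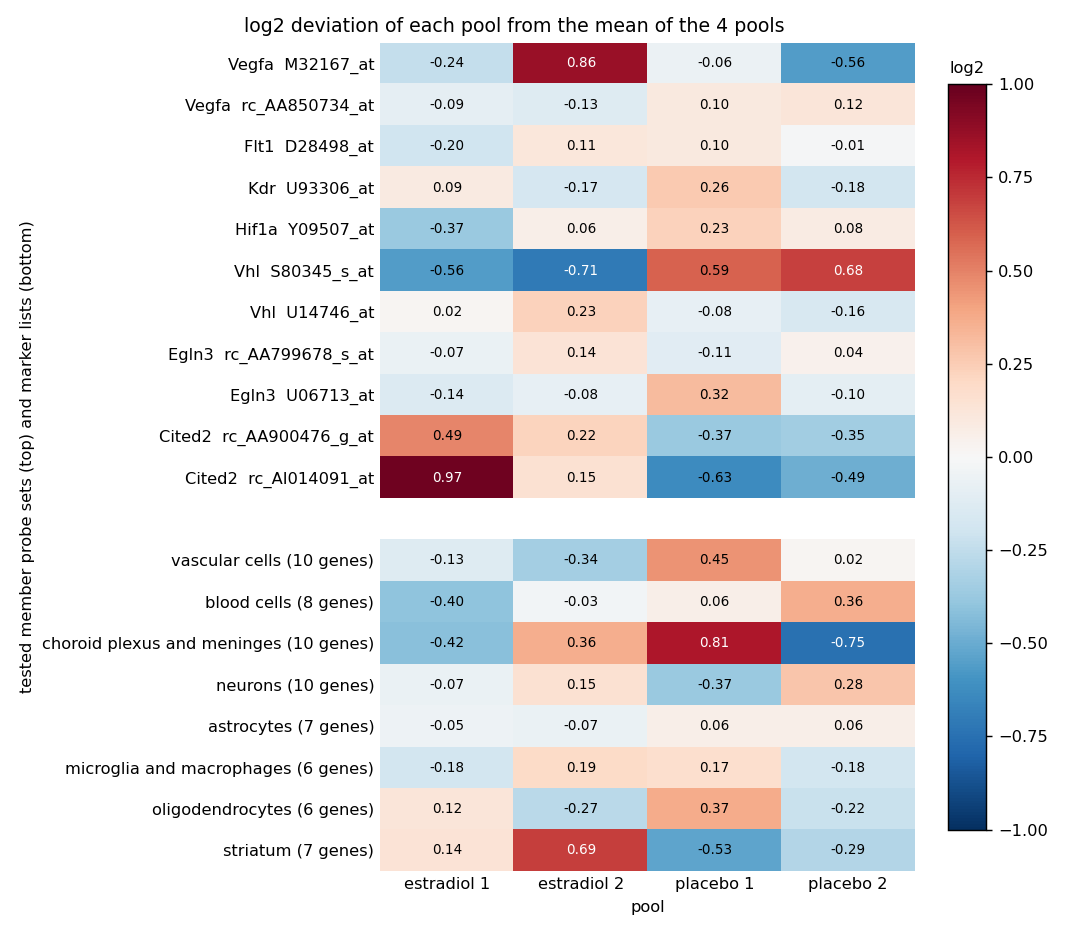
Log2 deviation of each pool from the mean of the 4 pools for the 11 tested probe sets (top) and the mean deviation of 8 lists of cell type and region markers (bottom). Estradiol and placebo pools do not overlap for 6 of the 11, against 29.7% of all tested probe sets. The largest differences are in Vhl (S80345_s_at) and both Cited2 probe sets. Of these, S80345_s_at and Cited2 (rc_AA900476_g_at) were tested only because of their brighter group. The others of the 6 are Vhl (U14746_at), of opposite sign to S80345_s_at, Vegfa (rc_AA850734_at) and Hif1a. Vegfa (M32167_at) stands at 0.86 in estradiol 2, and choroid plexus and meninges markers run from -0.75 in placebo 2 to 0.81 in placebo 1.

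The wider machinery of the hypoxia-inducible factors was read from a list of 20 genes, 11 of them on the array and all 11 tested, each by its probe set of highest mean. Of these, 6 had log2 fold changes above 0 and 5 below, with a median of 0.05 against 0.01 over 3181 genes. None passed adjustment in limma, against 0% of all genes, and 1 of 11, Cited2, had an unadjusted p below 0.05, against 2.58% of all genes. Without estradiol 2, 5 of the 11 lay above 0 and the median was -0.03. The count took Vhl by U14746_at, at 0.25, and not by its other tested probe set, at -1.27. With the mean of a gene's tested probe sets, 5 of the 11 lay above 0 and the median was -0.02. Beside Cited2, the highest was Cited1, a relative of Cited2 that also binds p300 and CBP, which read 74.4 and 90.1 with estradiol, 65.3 in placebo 2 and was at background in placebo 1. It had a log2 fold change of 0.62, with a 95% interval from -0.15 to 1.39, or 0.27 without placebo 1 and 0.97 without placebo 2. The lowest beside Hif1a was Arnt2, the partner subunit abundant in neurons, with a log2 fold change of -0.29 and a 95% interval from -0.90 to 0.32, or -0.17 without estradiol 2 and -0.16 without placebo 1. Values for Arnt, the general partner, and for Elob and Eloc of the Vhl complex lay between -0.11 and 0.05.

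Targets of the factor outside the vascular systems numbered 43 on the array, of which 37 were tested. Of these, 20 lay above 0 and 17 below, with a median of 0.01, the same as over all genes, and none passed adjustment. Without placebo 2, 17 of the 37 lay above 0 and the median was -0.06. The estradiol and placebo pools did not overlap for 8 of 37, against 30.1% of all genes. At an unadjusted p below 0.05 in limma there were 2 of 37, both higher with estradiol, against 1.70% of all genes in that direction. Nos2, the inducible nitric oxide synthase, had a log2 fold change of 1.26, or 0.68 without placebo 1, where it was at background, and its other tested probe set had -0.08. Th, the rate-limiting enzyme of catecholamine synthesis, read 181.6 and 183.4 with estradiol and 105.9 and 108.7 with placebo. Its pools of a group were nearly equal, and its log2 fold change was 0.69, with a 95% interval from 0.19 to 1.19 and between 0.67 and 0.70 with 1 pool left out. The lowest was Plaur, the urokinase receptor, with -0.59, or -0.14 without placebo 1 and -1.05 without placebo 2. Its estradiol mean of 34.7 was below the intensity limit, so it too was tested only because of the placebo pools. Next came Pkm, the pyruvate kinase of most tissues, with -0.37 and a 95% interval from -0.81 to 0.06. The tested glucose transporters and glycolytic enzymes of the list are the metabolic face of the hypoxia response. By the probe set of highest mean they lay between this value of Pkm and 0.12 for Hk1, a hexokinase. Among other tested probe sets, Hk1 had -0.22, and the glycolytic enzymes Pgam1 and Pgk1 had 0.27 and -0.07, and 0.13.

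Of 14 genes for VEGF and angiopoietin ligands and receptors, 9 were on the array and 4 were tested, all 4 with values below 0, against 47.6% of all genes, and a median of -0.08. These were Vegfa, Flt1, Kdr and Nrp1, a co-receptor of Vegfa. The count took Vegfa by its brightest probe set, and with the mean of a gene's tested probe sets 1 of the 4 lay above 0. Without placebo 1, 2 of the 4 lay above 0 and the median was 0.05, and without estradiol 1 there were also 2 above 0. Nrp1 read 47.5 and 66.7 with estradiol and 110.5 and 28.9 with placebo. Placebo 1 was the highest and placebo 2 the lowest pool, so the groups overlapped, and the log2 fold change of -0.06 became 0.69 without placebo 1 and 0.13 without estradiol 1. Of the genes for signalling below the receptors, 22 were tested, 13 above 0 and 9 below, with a median of 0.06. Without placebo 1, 8 lay above 0 and the median was -0.05, and without estradiol 1, 10 lay above 0 and the median was -0.09. Akt2, a survival kinase, had 0.45, with a 95% interval from -0.19 to 1.08, and Rac1, a small GTPase of cell migration, had 0.42, with a 95% interval from -0.06 to 0.90. Nos3, the endothelial nitric oxide synthase, had -0.41, or -0.12 without estradiol 2, and its other tested probe sets had -0.21 and -0.01. Pla2g4a, a phospholipase, had -0.35, or -0.05 without placebo 1. None had an unadjusted p below 0.05 in limma.

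The adrenomedullin system had 5 genes on the array, of which 2 were tested. Calcrl, the receptor of adrenomedullin, read 28.7 and 35.2 with estradiol, at background in both pools, and 54.1 and 42.9 with placebo. It was at least 1.35-fold lower with estradiol, and its fitted log2 fold change was -0.43, with a 95% interval from -1.23 to 0.38. Its estradiol mean of 32.0 was below the intensity limit, so it was tested only because of the placebo pools. Pam, the enzyme that amidates adrenomedullin and many other peptides, had 0.02, which became -0.0015 after median centring and -0.02 without placebo 2.

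**Figure D4:**
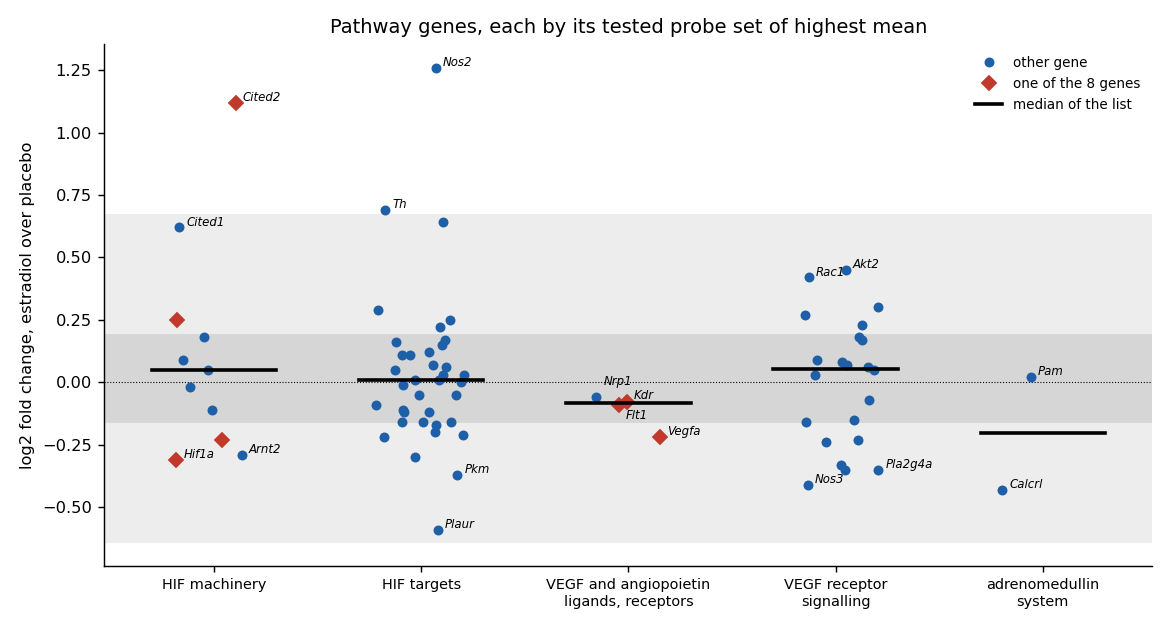
Log2 fold change of each tested gene in 5 lists, each by its probe set of highest mean, with list medians (black bars). Red diamonds are the 7 of the 8 genes that were tested (Adm was not), the dark band holds the middle 50% of all tested probe sets (-0.16 to 0.19) and the light band the middle 95% (-0.64 to 0.67). Cited2, Nos2 and Th lie above the light band.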

How the data were processed

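Each array carried labelled cRNA from a pool of 3 rats. The authors deposited 1 linear intensity per probe set and array, scaled so that the means after trimming 2% at each end were nearly equal. No source used here names the program. Control probe sets, 59 of 8799 rows, were removed. Gene symbols came from the platform annotation, and 7006 probe sets had 1 symbol. RefSeq assembly GRCr8 gave names and promoter windows.

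Intensities were used as log2(value + 16), since array medians differed by at most 0.056 on that scale. Probe sets under the 40th percentile of the mean were left out. Groups were compared with limma 3.58.1 in R 4.3.3 (lmFit, eBayes with intensity trend, two-sided), with Benjamini-Hochberg adjustment over all 5244 tested probe sets and a threshold of 0.05. With 2 residual degrees of freedom, the number of arrays limits its precision. The script was tested on simulated data. Alternatives were offsets of 1 and 64, no filter, a filter at the 60th percentile, median centring, quantile normalisation, no trend, a replicate block and each array left out.

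The 8 genes and the lists were chosen with earlier results of these data known. Named genes were all 8, the 2 highest and 2 lowest in each pathway list, and like patterns for genes ranging over more than 1 log2 unit. Tables and plots used Python 3.11.15, pandas 2.3.3 and matplotlib 3.10.9.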

Additional observations from a re-analysis of the deposited data

How the results depend on the processing

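Under all alternatives run, 0 probe sets of the array and 0 of the 8 genes' probe sets passed adjustment in limma. Over 126 alternative values of the 11 tested probe sets, 4 changed sign, all with 1 pool left out. They belong to Flt1, with values between -0.24 and 0.07, Kdr, between -0.30 and 0.14, and Egln3 (rc_AA799678_s_at), between -0.04 and 0.18. Offset and scaling turned none of the 11. An offset of 64 lowered the size of dim ones, to 0.40 for Cited2 (rc_AA900476_g_at) and 0.41 for Vegfa (M32167_at). Filter, trend and replicate block cannot move a log2 fold change, so those of the 126 values were fixed by construction. With the filter at the 60th percentile, only 5 of the 11 were tested. Among the 13 other named genes, Nrp1 lay between -0.80 and 0.69 with 1 pool left out. Pam lay between -0.02 and 0.07 and was -0.0015 after median centring. The median of the 11 lay between -0.14 and 0.07 with 1 pool left out. The replicate number was no pairing in the labels, and the deviations of same-numbered pools correlated at 0.04 over probe sets. With the replicate block, 0 probe sets passed and the log2 fold changes were unchanged by construction. Signal over background limits 6 of the 15 probe sets, which were at background in at least 1 pool.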

Other observations

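Several vascular ligands and receptors lay below the intensity limit and were not tested with the others. Pgf, the placental growth factor and a ligand of Flt1, read 11.9 and 11.4 with estradiol, at background in both pools, and 72.2 and 40.4 with placebo. It was at least 1.51-fold lower with estradiol, and in limma without the intensity filter its fitted log2 fold change was -1.35 ± 0.34 (SE), with an adjusted p of 0.999. It was singled out after its values were seen. Vegfb read 19.1 and 68.3 with estradiol and 24.3 and 17.0 with placebo, above background in estradiol 2 alone, the pool in which the Vegfa probe set M32167_at was also highest. Vegfd was above background in placebo 2 alone, at 46.9. Nrp2 and Angpt2 were at background on every array. So was Epo, the erythropoietin gene and a classical target of hypoxia-inducible factors, with readings of 4.7, 5.3, 6.7 and 6.3.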
